A study of Oryza sativa with 8 samples.

Results

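The question here is which transcripts responded differently to submergence in rice plants with and without the SUB1 introgression, and which of the 4 groups of plants set each difference apart. The quantity is the interaction, the submerged minus non-submerged change in M202(Sub1) minus the same change in M202. All 8 arrays of the series, in 4 groups of 2, and all 57258 probe sets other than the manufacturer's controls enter it, and 34355 of these were bright enough to be tested. An interaction above 0 means a larger rise or a smaller fall in M202(Sub1). It is given on the log2 scale with the standard error (SE) that limma gave it, from 2 arrays in each group, and a probe set was called when limma's adjusted p was below 0.05. An interaction that was not called is not shown to be absent.

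Rice survives flooding by different routes. Under water, oxygen falls and the plant hormone ethylene accumulates, and most cultivars then elongate their leaves and spend their carbohydrate stores. The SUB1 locus holds genes for ethylene-responsive transcription factors, and its gene Sub1A is known for holding elongation growth back and sparing carbohydrate during submergence. Without oxygen, cells make ATP by glycolysis, and ethanol fermentation by pyruvate decarboxylase and alcohol dehydrogenase restores the cofactor that glycolysis uses up.

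The arrays measured aerial tissue of plants grown in soil in a greenhouse to an age of 14 days. M202 is a japonica cultivar that the labels give as lacking Sub1A, and M202(Sub1) is the same cultivar with the SUB1 region introgressed, given as carrying it. The 4 groups were M202(Sub1) submerged, M202(Sub1) non-submerged, M202 submerged and M202 non-submerged. Submerged plants stood completely under water for 24 h and belong to day 1, whereas non-submerged plants belong to day 0, so 1 day of age and any difference in the hour of harvest go together with submergence in both genotypes. An introgression can carry other genes beside Sub1A, and their parts cannot be told apart here. SUB1A itself, SUB1B, SUB1C and ADH1 are not paired with a probe set by name in the annotation used and were not analysed here. The replicates are called independent and biological without a statement of what separated them, so p-values measure the spread between these samples.

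Replicate arrays had correlations of 0.9976 to 0.9983 over the probe sets. The deposited log2 values ran from a common floor of 2.22 to 16.9. Leaf markers were high in this aerial tissue, with 9 of 11 at a mean of at least 5 in each group, though not the same 9, and array means between 11.9 and 12.28. Of them, PPDK2 was called for the interaction. Markers of dividing cells were low, with 1 or 2 of 7 at a mean of 5 or more in each group and array means of 3.89 to 4.13, and 0 of the 7 were called. Of 14 markers chosen for roots, 7 to 9 reached 5, with array means of 5.74 to 6.31, and 2 were called higher and 2 lower. They were matched by the start of a gene name. The match took in SIZ1 and SIZ2, at 8.82 to 10.04 on all arrays, whose root specificity was not tested. The poly(A) spike-ins, which are bacterial RNAs mixed in before the labelling reaction, averaged 9.03 and 9.09 on the submerged and 8.73 and 8.6 on the non-submerged M202(Sub1) arrays, against 8.84 and 8.78 on the submerged and 8.62 and 8.62 on the non-submerged M202 arrays. They were thus brightest in submerged M202(Sub1), and centring on them lowers the median interaction by 0.21. Its part in the results was not tested. In such bulk tissue, fewer cells of a type and less RNA per cell cannot be told apart.

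The interaction was called for 4223 probe sets, 12.3% of those tested. Of them, 2186 were higher (6.36% of those tested) and 2037 lower (5.93%), and 1008 had an absolute interaction of at least 1. Higher calls made up 51.8% on the deposited scale, 44.7% after quantile normalization and 19.7% after poly(A) centring. The balance between directions therefore depends on the scale. After poly(A) centring, 933 of the 2186 higher calls were also called higher and 2012 of the 2037 lower calls also lower, an order that follows from the downward shift this centring gives the interactions. In units of genes, 2840 of 16032 were called (17.7%), and 469 of the 2238 that carry a gene name (21.0%). The gene lists below hold named genes, so 21.0% is the share to set beside their counts. The median interaction over all genes was 0.04, and -0.16 after poly(A) centring.

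For comparison, submergence was called for 16808 probe sets in M202(Sub1) (48.9%) and 14738 in M202 (42.9%), which is 66.3% and 59.5% of genes. The genotypes differed at 7123 probe sets in submerged plants (20.7%; 29.3% of genes) and at 657 in non-submerged plants (1.91%; 2.05% of genes). These contrasts share arrays with each other and with the interaction.

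The submerged arrays held most of the difference. Of the 4223 called probe sets, 3645 (86.3%) had a called genotype difference in submerged plants alone, 206 (4.88%) in non-submerged plants alone, 161 (3.81%) in both and 211 (5.0%) in neither. The genotype difference was larger in size after submergence than before at 3753 of them (88.9%). That share lay between 62.5% and 68.6% when single non-submerged arrays were left out. Over all probe sets tested, too, genotype differences were called more often in submerged (20.7%) than in non-submerged plants (1.91%). The median size of the genotype difference among probe sets called higher was 0.47 in submerged and 0.10 in non-submerged plants. Among those called lower it was 0.63 in submerged and 0.10 in non-submerged plants. The share with a genotype difference in submerged plants alone was 60.9% and 65.5% without replicate 1 or 2 of non-submerged M202(Sub1), and 64.1% and 67.9% without replicate 1 or 2 of non-submerged M202. The share with one in non-submerged plants alone was then 30.1%, 27.1%, 29.1% and 25.0%. It stayed a majority for the submerged plants in all of these fits.

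**Figure D1:**
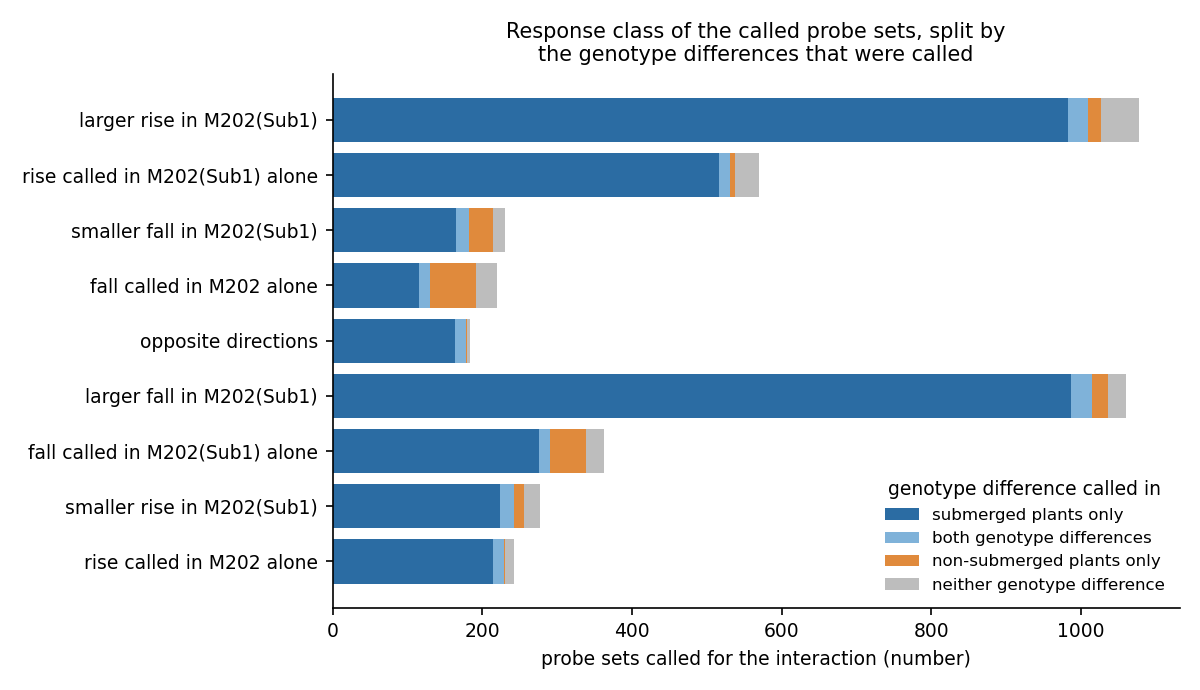
Number of called probe sets (bar length) in each of the 9 classes of submergence response, divided by colour into the 4 classes of genotype difference. The longest bars, larger rise (1078) and larger fall (1060) in M202(Sub1), consist mostly of probe sets whose genotypes differed in submerged plants alone (983 and 987).

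M202(Sub1) was more often the genotype with the larger response. A larger rise in M202(Sub1) was found at 1078 probe sets (25.5% of the calls), with a median change of 1.39 in M202(Sub1) and 0.78 in M202. A larger fall was about as frequent, at 1060 (25.1%), with medians of -1.75 in M202(Sub1) and -0.97 in M202. A rise called in M202(Sub1) alone was found at 570 and a fall called in M202(Sub1) alone at 362. The responses that were smaller in M202(Sub1) were fewer, with 277 smaller rises, 230 smaller falls, 242 rises called in M202 alone and 220 falls called in M202 alone. The remaining 184 moved in opposite directions, 88 of them up in M202(Sub1). By size, 3156 of the called responses (74.7%) were larger in M202(Sub1), compared with 60.3% over all probe sets tested, and this share was 76.8% against 73.7% after poly(A) centring. The share among the calls ranged between 55.0% and 80.1% when single arrays were left out. Without replicate 1 or 2 of non-submerged M202 it was 55.0% and 57.7%, below the 60.7% and 60.6% over all probe sets tested. The excess over all probe sets tested therefore depended on single arrays.

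**Figure D2:**
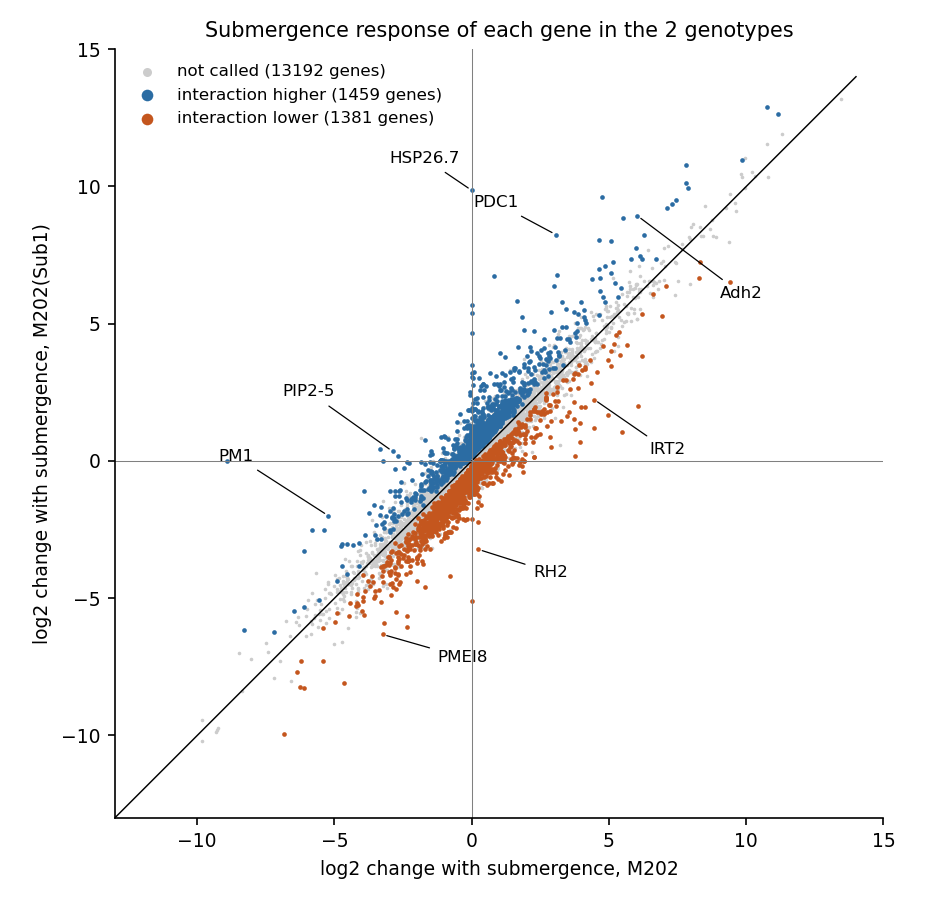
Log2 change with submergence in M202(Sub1) (vertical axis) against that in M202 (horizontal axis), 1 point per gene at its brightest probe set. The line marks equal change, and the 1459 genes called higher lie above it and the 1381 called lower below it, with HSP26.7 and PDC1 far above and RH2 and PMEI8 far below.

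Genes of energy metabolism without oxygen had higher interactions. All 3 tested fermentation genes were higher, with a median of 2.89 (2.68 after poly(A) centring), beside a median of 0.04 over all genes. PDC2, a pyruvate decarboxylase and the only one of the 3 that was well expressed before submergence, had 13.72 and 13.69 in submerged and 10.11 and 10.12 in non-submerged M202(Sub1), compared with 12.32 and 12.25 in submerged and 10.17 and 10.23 in non-submerged M202. The genotypes were thus close before submergence and more than 1 apart after it (interaction 1.51 ± 0.05, limma adjusted p = 0.000423). PDC1, of the same enzyme family, had 10.66 and 10.62 in submerged and 2.52 and 2.26 in non-submerged M202(Sub1), compared with 5.39 and 5.20 in submerged and 2.22 and 2.26 in non-submerged M202. Adh2, an alcohol dehydrogenase, had 11.41 and 11.32 in submerged M202(Sub1), compared with 8.51 and 8.44 in submerged M202, and 2.44 on all 4 non-submerged arrays. Both genes rose in both genotypes, and both started at or near a floor, which limits the folds.

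In cytosolic glycolysis 7 of 14 genes were higher and 0 lower, with a median of 0.40. After poly(A) centring 5 were higher and 1 lower, with a median of 0.18. AldC-1, a cytosolic aldolase, had 14.96 and 15.02 in submerged and 12.13 and 12.12 in non-submerged M202(Sub1), compared with 13.56 and 13.57 in submerged and 12.03 and 12.06 in non-submerged M202. GAPC3, a glyceraldehyde phosphate dehydrogenase, had 15.04 and 14.95 in submerged and 11.59 and 11.85 in non-submerged M202(Sub1), compared with 13.91 and 13.83 in submerged and 11.80 and 11.84 in non-submerged M202. Eno1, an enolase, rose by 2.05 in M202(Sub1) and by 1.06 in M202. AldC-1 and GAPC3 were called at 2 of their 3 probe sets. These 3 genes had larger rises, whereas GPI-B, a phosphoglucose isomerase, was called higher because it fell less. It fell by 2.01 in M202(Sub1) and by 3.11 in M202 (interaction 1.11 ± 0.14, limma adjusted p = 0.0128). PPDK2, a pyruvate phosphate dikinase, had 15.65 and 15.60 in submerged M202(Sub1), compared with 14.50 and 14.36 in submerged M202, and between 2.96 and 3.6 on the non-submerged arrays of both genotypes. Its interaction of 1.5 ± 0.30 was not called when 6 of the 8 arrays were left out singly (limma adjusted p = 0.087 to 0.114). ICL, which encodes the glyoxylate cycle enzyme isocitrate lyase, rose in both and had an interaction of -1.38 ± 0.51 that was not called (limma adjusted p = 0.168).

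Among 14 genes of sucrose and starch breakdown 2 were higher and 2 lower, and among 10 genes of starch synthesis 2 were higher and 0 lower. The breakdown list had 0 higher and 6 lower after poly(A) centring, and 0 higher and 2 lower after quantile normalization. Of its 4 called genes, SUS1 was called without each array in turn, whereas SUS6, SUS4 and NIN1 were not called when 6, 7 and 8 of the 8 arrays were left out singly (limma adjusted p = 0.0556 to 0.119). SUS1, a sucrose synthase, had 12.35 and 12.40 in submerged and 13.24 and 13.20 in non-submerged M202(Sub1), compared with 13.20 and 13.18 in submerged and 13.24 and 13.37 in non-submerged M202. It stands apart on the submerged M202(Sub1) arrays alone (-0.74 ± 0.07, limma adjusted p = 0.0067). TPP1, a trehalose-6-phosphate phosphatase, had 9.62 and 9.67 in submerged and 9.0 and 8.77 in non-submerged M202(Sub1), compared with 7.57 and 7.19 in submerged and 9.14 and 9.01 in non-submerged M202. It rose by 0.76 in M202(Sub1) and fell by 1.70 in M202, with an interaction of 2.46 ± 0.21 (limma adjusted p = 0.00487).

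Of 18 small heat shock protein genes 3 were higher and 2 lower (27.8% called, against 21.0% of all named genes), with a median of -0.06. HSP26.7, a small chaperone, had 12.10 and 12.12 in submerged M202(Sub1) and 2.25 on each of the other 6 arrays, which is at the floor. Its transcript was therefore seen in 1 group alone, and its interaction of 9.86 is limited by the floor. HSP18.0 had 12.20 and 12.21 in submerged and 11.47 and 11.46 in non-submerged M202(Sub1), compared with 11.07 and 11.07 in submerged and 11.29 and 11.28 in non-submerged M202. It rose with submergence in M202(Sub1) and fell in M202, though the genotypes differed before submergence as well. Among 25 large heat shock proteins and heat shock factors 3 were higher and 0 lower, and all 3 were transcription factors. HSF07 had 9.82 and 9.85 in submerged and 8.27 and 8.51 in non-submerged M202(Sub1), compared with 8.04 and 8.04 in submerged and 8.30 and 8.36 in non-submerged M202 (interaction 1.74 ± 0.12, limma adjusted p = 0.00299). HSF03 rose by 4.03 in M202(Sub1) and by 2.54 in M202, and HSF23 rose by 0.97 in M202(Sub1), with -0.01 in M202. After poly(A) centring 2 further genes of that list were called lower.

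Chitinases and related defence genes had 5 of 12 higher and 0 lower, with a median of 0.63 (0.42 after poly(A) centring, with 4 higher and 1 lower). The called genes came to their interaction by different routes. Chib3H-a had 4.41 and 4.27 in submerged M202(Sub1), and group means within 0.1 of the floor elsewhere. Cht4, a chitinase, fell by 3.09 in M202(Sub1) and by 4.76 in M202. Its interaction of 1.67 ± 0.23 was not called without replicate 2 of non-submerged M202 or replicate 2 of submerged M202 (limma adjusted p = 0.0505 and 0.0522). Cht2 was set apart by a fall in M202 alone, and Cht11 by a lower level in non-submerged M202(Sub1). No WRKY gene was called by limma among the 6 tested, and 0 had an unadjusted p below 0.05.

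Cell wall lists differed in their calls. Of 20 expansins, proteins that loosen the wall during cell growth, 5 were lower and 0 higher (25.0% called, against 21.0% of all named genes). The other 15 were not called, and the median was -0.30. EXP2 had 7.71 and 7.71 in submerged and 9.93 and 9.83 in non-submerged M202(Sub1), compared with 9.19 and 9.05 in submerged and 9.71 and 9.65 in non-submerged M202. The submerged M202(Sub1) arrays lay more than 1 below all others (-1.61 ± 0.09, limma adjusted p = 0.00163). EXPB3 fell by 1.81 in M202(Sub1) and by 0.91 in M202. EXPB7 was the exception among the 5, since it rose in both genotypes, by 2.04 in M202(Sub1) and by 2.82 in M202. EXPB11 and EXPB6 were not called when 5 and 6 of the 8 arrays were left out singly (limma adjusted p = 0.05 to 0.103).

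Lignin synthesis genes and laccases, which couple lignin units in the wall, had 10 of 24 lower and 0 higher, with a median of -0.29. LAC4, a laccase, had 5.69 and 5.66 in submerged and 9.97 and 10.00 in non-submerged M202(Sub1), compared with 7.01 and 7.19 in submerged and 9.77 and 9.96 in non-submerged M202. LAC10 had 7.73 and 7.85 in submerged and 9.02 and 8.96 in non-submerged M202(Sub1), compared with 8.74 and 8.73 in submerged and 8.87 and 8.73 in non-submerged M202, so it fell in M202(Sub1), with -0.06 in M202. Laccases were among the symbol families with the highest share of calls, 4 of 8, all lower. One of the 4, LAC24, had 2.23 in 3 groups, at the floor, and 2.71 and 2.54 in submerged M202, and it was not called when 6 of the 8 arrays were left out singly (limma adjusted p = 0.0919 to 0.108). Not every member of the list fell. CAD8A, a cinnamyl alcohol dehydrogenase, had 8.30 and 8.01 in submerged and 2.70 and 3.01 in non-submerged M202(Sub1), compared with 9.69 and 9.73 in submerged and 2.68 and 2.88 in non-submerged M202, a strong rise in both that was smaller in M202(Sub1). 4CL.2, a 4-coumarate CoA ligase, fell by 4.09 in M202(Sub1) and by 2.97 in M202, but its interaction was not called when 6 of the 8 arrays were left out singly (limma adjusted p = 0.0588 to 0.09).

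Other wall genes were mixed. PMEI8, which encodes a pectin methylesterase inhibitor, had 3.55 and 3.53 in submerged and 9.87 and 9.85 in non-submerged M202(Sub1), compared with 6.60 and 6.89 in submerged and 9.99 and 9.99 in non-submerged M202. It fell in both genotypes, and much further in M202(Sub1) (-3.08 ± 0.14, limma adjusted p = 0.00108). In the cellulose synthase superfamily 3 of 27 were higher and 4 lower (25.9% called, against 21.0% of all named genes). CESA1 and CESA6, cellulose synthases, had interactions of -0.50 ± 0.06 and -0.65 ± 0.09, and CESA6 was not called without replicate 2 of non-submerged M202 or either array of submerged M202 (limma adjusted p = 0.0526 to 0.0593). CSLC9, of a family that makes xyloglucan backbones, went the other way, with 6.14 and 6.19 in submerged and 4.29 and 4.26 in non-submerged M202(Sub1), compared with 4.47 and 4.29 in submerged and 4.26 and 4.26 in non-submerged M202. Of 6 genes for BURP-domain proteins, 4 were lower and 0 higher, with a median of -0.66. BURP2 fell by 5.47 in M202(Sub1) and by 3.99 in M202, and BURP17 had 2.22 to 2.60 on the 4 M202(Sub1) arrays, compared with 13.97 and 13.88 in submerged and 12.06 and 12.15 in non-submerged M202. The lower call of BURP17 is thus a rise in M202 set against a floor.

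**Figure D3:**
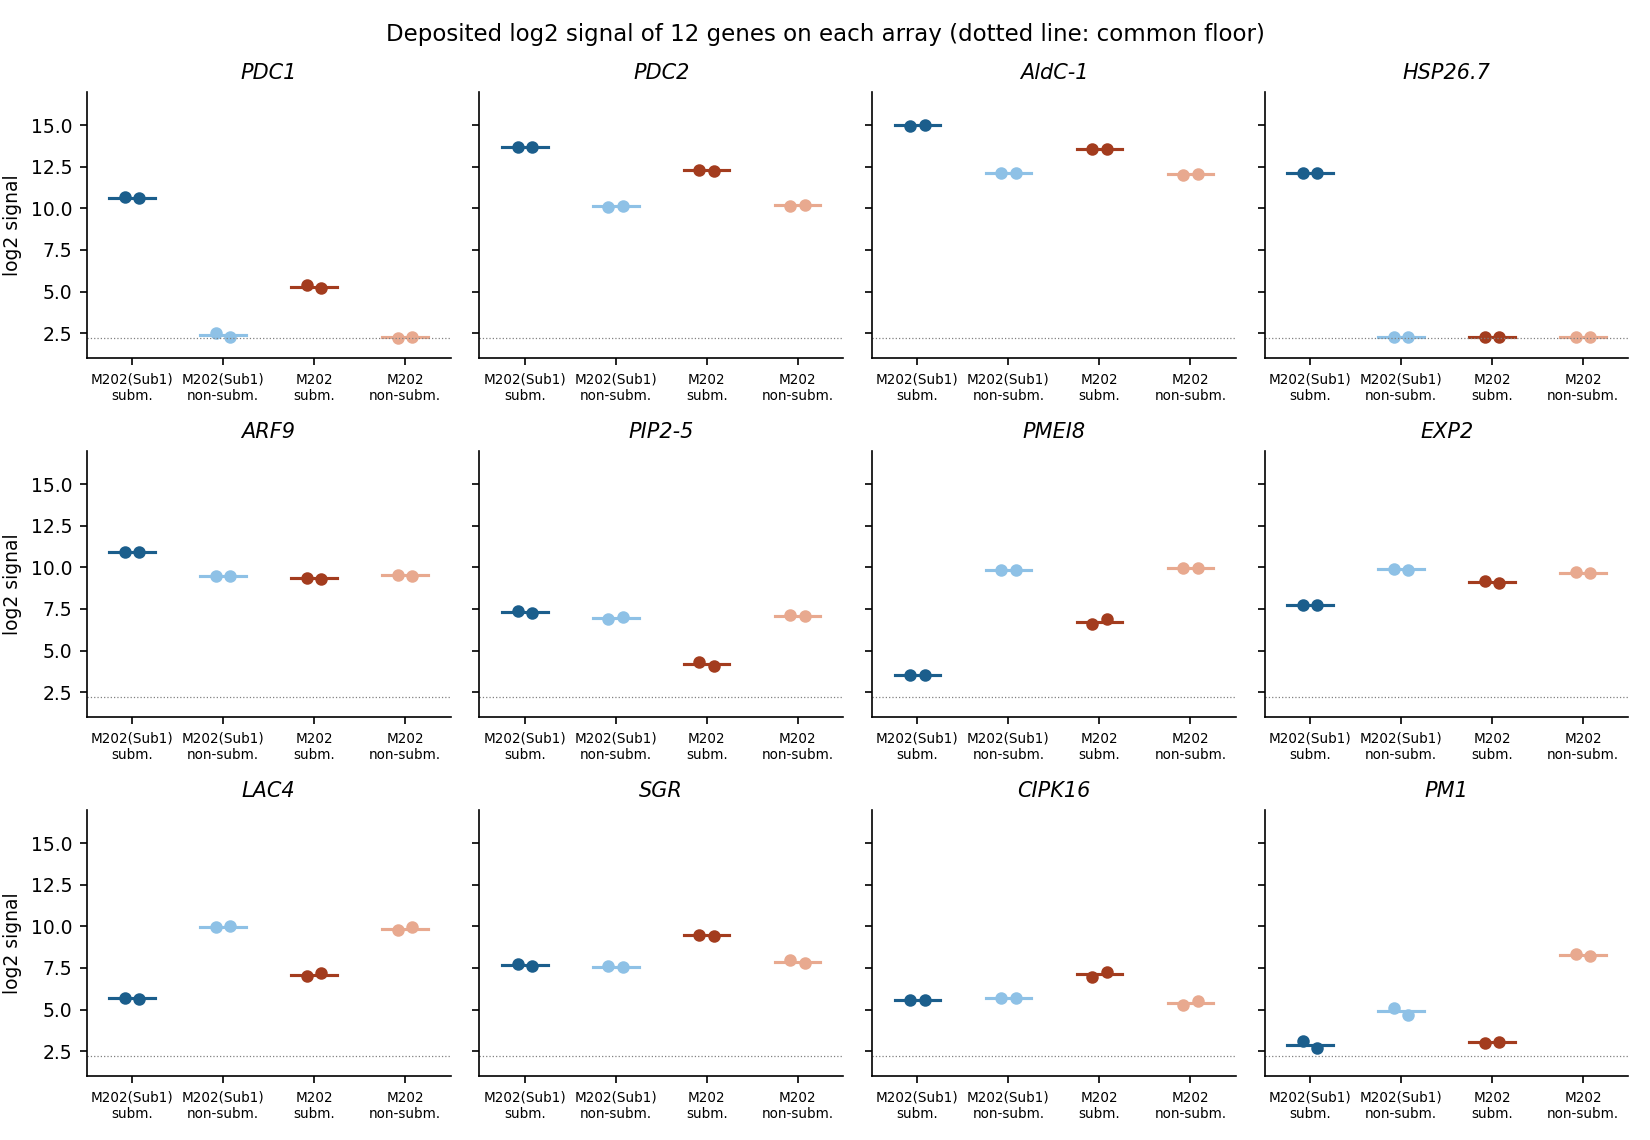
Deposited log2 value of 12 genes on each of the 8 arrays (points) with group means (bars) and the common floor (dotted line), groups in the order M202(Sub1) submerged, M202(Sub1) non-submerged, M202 submerged, M202 non-submerged. The submerged group of M202(Sub1) stands apart for ARF9 and EXP2, and that of M202 for PIP2-5, SGR and CIPK16. For PDC2 and LAC4 both submerged groups leave the non-submerged level, that of M202(Sub1) by more. PM1 stands apart in non-submerged plants.

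Chlorophyll breakdown genes had lower interactions, with 3 of 4 lower and 0 higher and a median of -0.93. SGR, which encodes the stay-green protein that starts chlorophyll removal, had 7.76 and 7.61 in submerged and 7.6 and 7.54 in non-submerged M202(Sub1), compared with 9.46 and 9.45 in submerged and 7.96 and 7.81 in non-submerged M202. Submerged M202 lay above the other 3 groups, and no rise was called in M202(Sub1). RCCR1, a reductase of chlorophyll catabolites, had 10.30 and 10.28 in submerged and 8.35 and 8.19 in non-submerged M202(Sub1), compared with 11.48 and 11.45 in submerged and 8.32 and 8.46 in non-submerged M202. NOL, a chlorophyll b reductase, fell by 0.98 in M202(Sub1) and by 0.27 in M202, and was called at 1 of its 2 probe sets. NYC1, of the same activity, had an interaction of -0.80 ± 0.19 (limma adjusted p = 0.0644). SGR, RCCR1 and NYC1 were also the 3 markers of stressed tissue. Their mean was 9.05 and 9.05 in submerged and 8.64 and 8.48 in non-submerged M202(Sub1), compared with 10.37 and 10.26 in submerged and 8.75 and 8.70 in non-submerged M202.

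Chlorophyll synthesis and light harvesting held few calls on the deposited scale. PORA, a protochlorophyllide oxidoreductase, had 12.72 and 12.67 in submerged and 14.03 and 13.98 in non-submerged M202(Sub1), compared with 13.75 and 13.69 in submerged and 14.01 and 14.05 in non-submerged M202 (-1.0 ± 0.05, limma adjusted p = 0.00158). It was the 1 gene called of 7 in chlorophyll synthesis, and none of 9 light harvesting and photosystem genes was called by limma on the deposited scale, with 1 at an unadjusted p below 0.05. After poly(A) centring 6 of the 7 and 4 of the 9 were called lower.

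Water channels were called in both directions. Of 9 plasma membrane aquaporins 1, PIP2-5, was higher and 0 were lower (11.1% called, against 21.0% of all named genes). It had 7.36 and 7.27 in submerged and 6.88 and 7.03 in non-submerged M202(Sub1), compared with 4.33 and 4.10 in submerged and 7.11 and 7.08 in non-submerged M202. The submerged M202 group alone was low. Among the 12 other aquaporins 4 were lower and 0 higher. NIP2-2, of a subfamily that transports silicon and other small solutes, had 9.26 and 9.05 in submerged and 10.59 and 10.72 in non-submerged M202(Sub1), compared with 10.15 and 10.20 in submerged and 10.33 and 10.46 in non-submerged M202. NIP2-1, the silicon importer Lsi1, fell by 0.56 in M202(Sub1) and rose by 0.20 in M202. TIP4-1, a tonoplast aquaporin, rose by 0.52 in M202(Sub1) and by 1.01 in M202.

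The hormone lists were read beside the 21.0% called among all named genes. Of 53 auxin response genes 11 were higher and 4 lower (28.3% called), with a median of 0.26, but after poly(A) centring the median was 0.06, with 6 higher and 8 lower. ARF9, an auxin response factor, had 10.92 and 10.91 in submerged and 9.50 and 9.46 in non-submerged M202(Sub1), compared with 9.39 and 9.30 in submerged and 9.55 and 9.49 in non-submerged M202. It rose in M202(Sub1) and fell slightly in M202 (interaction 1.62 ± 0.06, limma adjusted p = 0.000651). IAA9, of the Aux/IAA repressors, had 6.46 and 6.77 in submerged and 4.51 and 4.51 in non-submerged M202(Sub1), compared with 4.93 and 4.51 in submerged and 4.51 and 4.51 in non-submerged M202. GH3.2, of the family that conjugates auxin to amino acids, rose by 1.42 in M202(Sub1) and fell by 0.55 in M202. In the lower direction PIN5A, an auxin transporter, fell by 2.48 in M202(Sub1) and by 1.29 in M202. Aux/IAA genes were called both ways, 6 of 24 higher and 2 lower.

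Of 81 abscisic acid signalling genes 14 were higher and 3 lower (21.0% called, the share of all named genes), with a median of 0.11, which became -0.10 after poly(A) centring, with 8 higher and 5 lower. PP2C51, a protein phosphatase 2C, had 4.08 and 4.28 in submerged M202(Sub1) and 2.25 on each of the other 6 arrays, at the floor. PP2C68, of the same family, had 2.24 and 2.80 in submerged and 2.80 and 2.80 in non-submerged M202(Sub1), compared with 2.79 and 2.80 in submerged and 5.27 and 5.92 in non-submerged M202. PP2C68 is an example of a higher call set by non-submerged plants, with low values of 2.24 to 2.80 outside non-submerged M202. It was not called with either array of submerged M202 or either array of non-submerged M202(Sub1) left out (limma adjusted p = 0.0587 to 0.0658). BZIP02, a transcription factor, rose by 0.79 in M202(Sub1) and fell by 0.85 in M202, and SAPK9, a kinase activated in this pathway, rose by 1.45 in M202(Sub1), with 0.11 in M202. These 2 were not called when 5 and 6 of the 8 arrays were left out singly (limma adjusted p = 0.0526 to 0.0924). MODD, named as a mediator of bZIP46 deactivation, had 6.22 and 6.22 in submerged and 6.5 and 5.96 in non-submerged M202(Sub1), compared with 8.17 and 7.96 in submerged and 6.10 and 6.19 in non-submerged M202. It was called at 1 of its 2 probe sets and was not called with either array of non-submerged M202 or replicate 2 of submerged M202(Sub1) left out (limma adjusted p = 0.0506 to 0.0569). ABA8OX1, a hydroxylase that inactivates abscisic acid, rose by 4.87 in M202(Sub1) and by 3.42 in M202, and its interaction was not called when 5 of the 8 arrays were left out singly (limma adjusted p = 0.0516 to 0.0605). ABA8OX2 had an interaction of -0.94 ± 0.21 (limma adjusted p = 0.0507).

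Dehydrins and LEA proteins, which accumulate in drying tissue and respond to abscisic acid, had 3 of 6 higher and 1 lower. The genotypes differed in non-submerged plants at 2 of the 6, both lower in M202(Sub1), and in submerged plants at 1, Dhn1, which was lower in M202(Sub1). RAB21, a dehydrin, had 3.99 and 3.99 in submerged and 6.90 and 7.09 in non-submerged M202(Sub1), compared with 3.86 and 3.99 in submerged and 8.79 and 8.54 in non-submerged M202. The submerged groups overlapped at the lowest values of this probe set, and the higher start in M202 made its fall larger. Whether a floor limited the falls of RAB21 was not tested. LEA19 was the other gene that differed in non-submerged plants, with 2.29 and 2.22 in submerged and 3.83 and 2.84 in non-submerged M202(Sub1). It had 2.70 and 2.63 in submerged and 6.82 and 6.38 in non-submerged M202. Its submerged M202(Sub1) arrays were at or near the floor, which limits the fall there. PM1, of the AWPM-19 membrane protein family and outside this list, had 3.09 and 2.69 in submerged and 5.10 and 4.67 in non-submerged M202(Sub1), compared with 3.0 and 3.07 in submerged and 8.32 and 8.20 in non-submerged M202. Dhn1 was the lower one, with a fall of 5.17 in M202(Sub1) and 4.17 in M202 at 1 of its 3 probe sets. LEA19 and RAB16B were not called when 6 of the 8 arrays were left out singly (limma adjusted p = 0.0621 to 0.114), and Dhn1 was not called with either array of non-submerged M202 left out (limma adjusted p = 0.0528 and 0.0535).

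Ethylene synthesis and signalling showed no called interaction in 9 genes (limma, on the deposited scale), 3 had an unadjusted p below 0.05, and 2 were called lower after poly(A) centring. ETR2, an ethylene receptor, rose by 2.90 in M202(Sub1) and by 3.07 in M202 (interaction -0.17 ± 0.15), and ACO1, an ethylene-forming oxidase, had -0.19 ± 0.08. Of 12 gibberellin genes 2 were higher and 1 lower. GID2, an F-box protein of the pathway, fell by 0.43 in M202(Sub1), with 0.11 in M202. The DELLA gene SLR1, a growth repressor, had 9.19 and 9.15 in submerged and 8.86 and 8.71 in non-submerged M202(Sub1), compared with 9.04 and 8.78 in submerged and 8.78 and 8.90 in non-submerged M202. Its interaction of 0.32 ± 0.15 was not called (limma adjusted p = 0.274), and neither was that of the related SLRL1, 0.75 ± 0.74, whose submerged arrays differed within a genotype, at 4.29 and 5.82 in M202(Sub1) and 3.97 and 4.63 in M202.

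Jasmonate genes had 6 of 34 higher and 3 lower (26.5% called). LOX9, a lipoxygenase, rose by 4.47 in M202(Sub1) and by 3.23 in M202, at 1 of its 2 probe sets. COI1, the jasmonate receptor subunit, had 12.64 and 12.74 in submerged and 11.38 and 11.33 in non-submerged M202(Sub1), compared with 11.93 and 11.97 in submerged and 11.40 and 11.34 in non-submerged M202. Brassinosteroid and cytokinin lists were mixed, with 1 of 11 higher and 1 lower, and 2 of 27 higher and 2 lower. BZR3, a brassinosteroid response factor, had 9.2 and 9.16 in submerged and 7.34 and 7.40 in non-submerged M202(Sub1), compared with 7.47 and 7.29 in submerged and 7.5 and 7.25 in non-submerged M202. The other 3 groups overlapped, and the interaction was 1.80 ± 0.15 (limma adjusted p = 0.00424). CKX5, a cytokinin-degrading oxidase, rose by 2.59 in M202(Sub1), with 0.44 in M202, and LOGL7, a cytokinin-activating enzyme, fell by 1.88 in M202(Sub1) and by 0.67 in M202. RR9, a response regulator of cytokinin signalling, fell by 3.05 in M202(Sub1) and by 4.33 in M202.

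**Figure D4:**
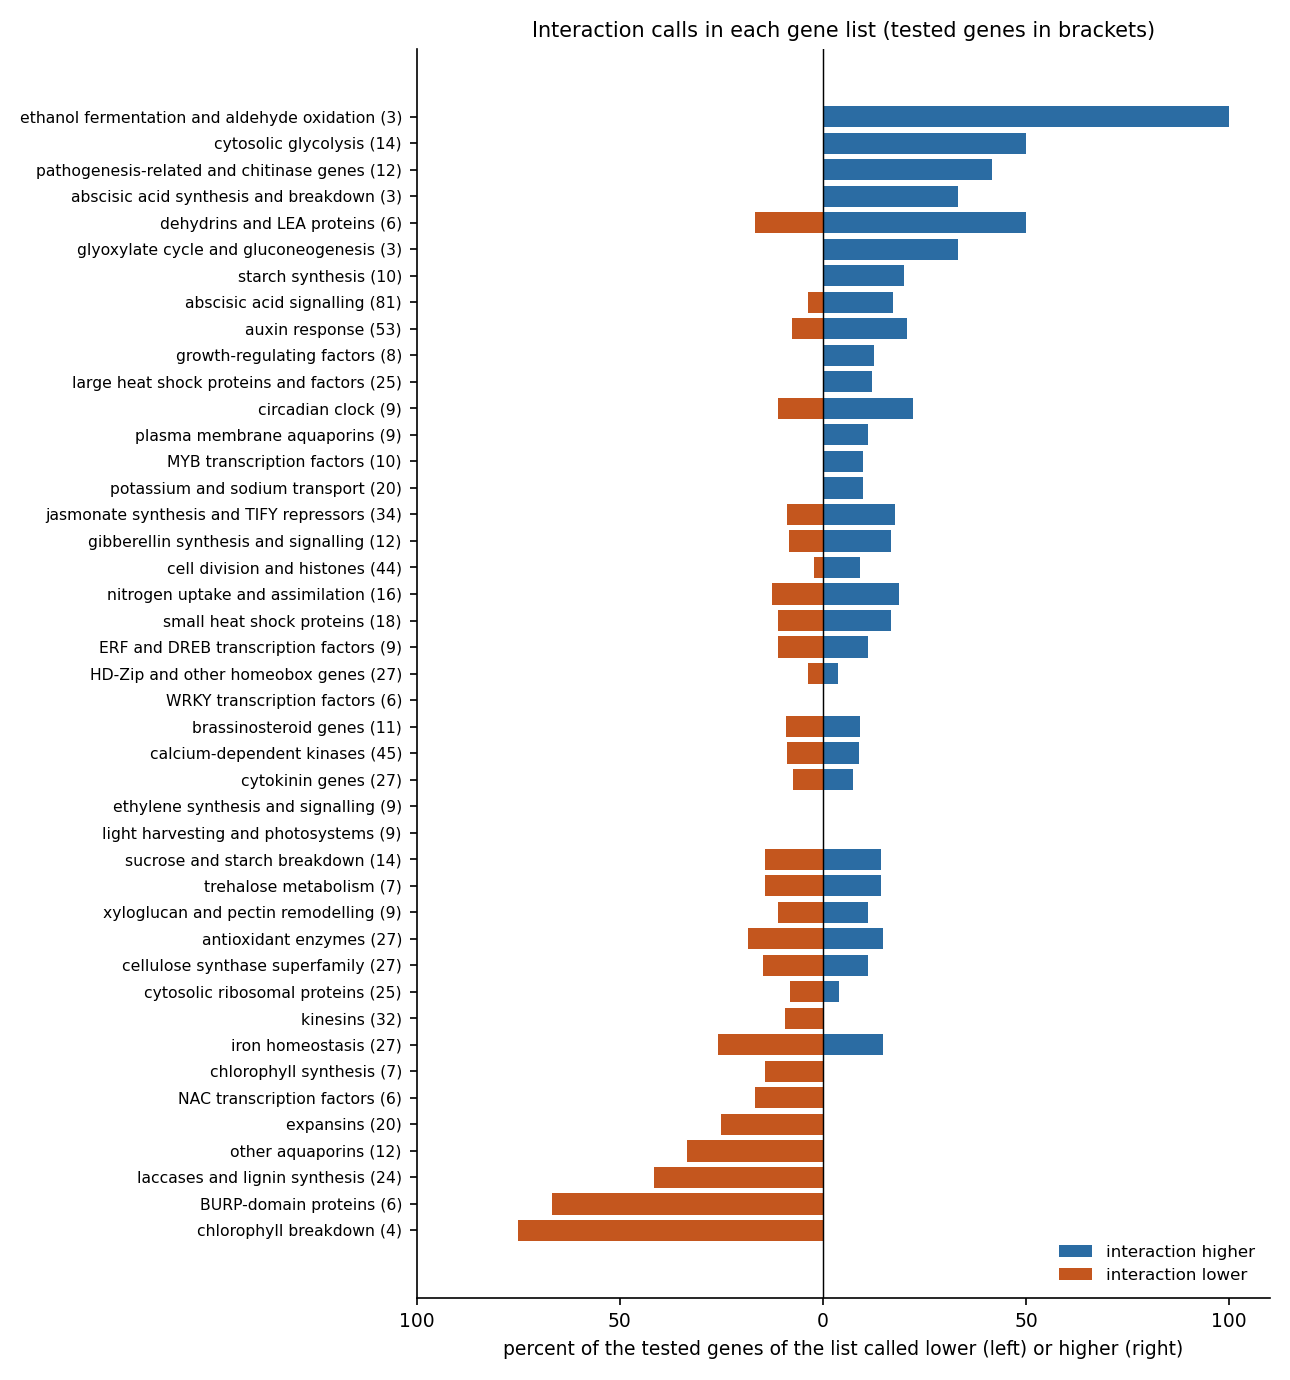
Percent of tested genes called higher (right) and lower (left) for the interaction in each gene list with at least 3 tested genes. Fermentation reaches 3 of 3 on the right, and expansins, lignin, chlorophyll breakdown and BURP genes have bars on the left alone. Homeobox, ERF and DREB, abscisic acid signalling, auxin and calcium kinase lists have bars on both sides. MYB genes have a bar on the right alone, NAC genes on the left alone, and WRKY and ethylene genes have none.

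On the deposited scale redox proteins were called in both directions. GRXS glutaredoxins, which reduce disulfide bonds with glutathione, had the highest share of calls of any symbol family with at least 8 tested members, 6 of 10 (against 21.0% of all named genes), 3 higher and 3 lower. GRXS5 had 9.38 and 9.40 in submerged and 9.87 and 9.78 in non-submerged M202(Sub1), compared with 10.68 and 10.66 in submerged and 9.79 and 9.81 in non-submerged M202. It fell in M202(Sub1) and rose in M202 (-1.31 ± 0.05, limma adjusted p = 0.000692). GRXS12 fell by 1.48 in M202(Sub1) and by 0.65 in M202, whereas GRXS1 rose by 1.91 in M202(Sub1) and by 1.25 in M202. Of 8 TRX thioredoxins 1 was higher and 3 lower. Trx03, a thioredoxin of the chloroplast f type, had 12.20 and 12.06 in submerged and 14.57 and 14.58 in non-submerged M202(Sub1), compared with 13.20 and 13.18 in submerged and 14.61 and 14.66 in non-submerged M202. GRXS6, GRXS7, GRXS9 and Trx14 were not called when 6 or 7 of the 8 arrays were left out singly (limma adjusted p = 0.0534 to 0.126), and Trx19 was not called with either array of non-submerged M202 left out (limma adjusted p = 0.0517 and 0.0544).

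Antioxidant enzymes had 4 of 27 higher and 5 lower. The catalases moved apart. CAT-A had 13.73 and 13.72 in submerged and 14.58 and 14.48 in non-submerged M202(Sub1), compared with 14.70 and 14.60 in submerged and 14.59 and 14.63 in non-submerged M202, so submerged M202(Sub1) alone was low (-0.85 ± 0.07, limma adjusted p = 0.00466). CAT-B rose by 1.74 in M202(Sub1) and by 1.18 in M202, and was called at 2 of its 5 probe sets. GST1, a glutathione transferase, had 7.13 and 7.16 in submerged and 7.19 and 7.16 in non-submerged M202(Sub1), compared with 5.95 and 5.67 in submerged and 7.6 and 7.75 in non-submerged M202, a fall called in M202 alone. APX5, an ascorbate peroxidase, fell by 1.52 in M202(Sub1), with -0.12 in M202, and was not called when 5 of the 8 arrays were left out singly (limma adjusted p = 0.0635 to 0.0832). The haemoglobin genes NSHB1 and NSHB2 rose in both genotypes, with interactions of 0.33 ± 0.13 and 0.20 ± 0.09 that were not called (limma adjusted p = 0.184 and 0.277).

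In mineral nutrition, iron genes had 4 of 27 higher and 7 lower. IRT2, an iron importer, had 5.01 and 4.80 in submerged and 2.66 and 2.68 in non-submerged M202(Sub1), compared with 7.38 and 7.61 in submerged and 3.20 and 2.88 in non-submerged M202. It rose in both, by less in M202(Sub1) (-2.22 ± 0.21, limma adjusted p = 0.00634). Nramp1, a metal transporter, fell by 3.51 in M202(Sub1) and by 2.70 in M202. YSL12, of a family that transports metals bound to nicotianamine, rose by 3.30 in M202(Sub1) and by 2.30 in M202, and YSL9 fell by 2.23 in M202(Sub1) and by 3.18 in M202. In this list 6 genes were already lower in non-submerged M202(Sub1) than in non-submerged M202, and 0 were higher.

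Of 16 nitrogen genes 3 were higher and 2 lower. NRT2.3, a high affinity nitrate transporter, had 5.31 and 5.53 in submerged and 2.23 and 2.23 in non-submerged M202(Sub1), compared with 2.80 and 3.36 in submerged and 2.41 and 2.41 in non-submerged M202, so its non-submerged arrays were near the floor. GLN1-2, a cytosolic glutamine synthetase, had 11.05 and 10.99 in submerged and 10.77 and 10.80 in non-submerged M202(Sub1), compared with 11.95 and 12.02 in submerged and 10.81 and 10.79 in non-submerged M202. Its rise was smaller in M202(Sub1) (-0.95 ± 0.05, limma adjusted p = 0.00162). Of 20 potassium and sodium transport genes 2 were higher and 0 lower, among them HAK17, which fell by 1.82 in M202(Sub1) and by 2.99 in M202.

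Protein kinases of calcium signalling had 4 of 45 higher and 4 lower, all of them CIPK genes. In such mixed lists poly(A) centring left mostly lower calls, with 2 higher and 14 lower here, 2 higher and 9 lower among iron genes and 3 higher and 12 lower among antioxidant enzymes. CIPK16 had 5.56 and 5.56 in submerged and 5.69 and 5.72 in non-submerged M202(Sub1), compared with 6.98 and 7.25 in submerged and 5.26 and 5.51 in non-submerged M202. It rose in M202 alone (-1.87 ± 0.18, limma adjusted p = 0.00631). CIPK17 had the same pattern, with 6.59 and 6.68 in submerged and 6.49 and 6.56 in non-submerged M202(Sub1), compared with 7.81 and 7.69 in submerged and 6.41 and 5.79 in non-submerged M202. CIPK12 had -0.05 in M202(Sub1) and fell by 1.53 in M202, at 1 of its 2 probe sets. CIPK17 and CIPK12 were not called when 6 of the 8 arrays were left out singly (limma adjusted p = 0.0771 to 0.0989). WNK3, a kinase of another family, fell by 0.72 in M202(Sub1) and rose by 1.05 in M202, also at 1 of its 2 probe sets.

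Clock genes, whose transcripts cycle over the day, had 2 of 9 higher and 1 lower. CCA1, a morning gene, had 9.27 and 9.23 in submerged and 10.81 and 10.61 in non-submerged M202(Sub1), compared with 10.27 and 10.14 in submerged and 10.67 and 10.76 in non-submerged M202. PRR1, an evening gene, had 9.58 and 9.64 in submerged and 8.22 and 8.15 in non-submerged M202(Sub1), compared with 8.96 and 8.82 in submerged and 8.51 and 8.54 in non-submerged M202. PRR95 rose by 0.53 in M202(Sub1), with 0.02 in M202. PCL1, which shares its name with a clock gene of Arabidopsis, had 8.03 and 7.97 in submerged and 5.50 and 5.68 in non-submerged M202(Sub1), compared with 6.93 and 6.74 in submerged and 6.88 and 6.89 in non-submerged M202. PCL1 was lower in M202(Sub1) than in M202 before submergence and higher after it. GI and PRR37 were not called (limma adjusted p = 0.0777 and 0.911).

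Most growth and regulatory lists held few calls. Cell division and histone genes had 4 of 44 higher and 1 lower, kinesins 0 of 32 higher and 3 lower, and cytosolic ribosomal proteins 1 of 25 higher and 2 lower. All of these shares lie below the 21.0% of all named genes. Homeobox genes had 1 of 27 higher and 1 lower (7.41% called), and MYB genes 1 of 10 higher and 0 lower (10.0%). NAC genes had 0 of 6 higher and 1 lower (16.7%). ERF and DREB genes had 1 of 9 higher and 1 lower (22.2%), close to the share of all named genes. Hox13 had 8.63 and 8.56 in submerged and 9.32 and 9.33 in non-submerged M202(Sub1), compared with 8.97 and 9.0 in submerged and 8.95 and 8.96 in non-submerged M202, with the genotypes differing in opposite directions before and after submergence. AP2-5, of the ERF and DREB list, had 0.18 in M202(Sub1) and fell by 0.58 in M202, at 1 of its 3 probe sets. GRF7, a growth-regulating factor, had 5.91 and 5.25 in submerged and 2.52 and 2.52 in non-submerged M202(Sub1), compared with 2.55 and 2.53 in submerged and 2.52 and 2.52 in non-submerged M202, a transcript near its lowest value everywhere but in submerged M202(Sub1). It was the 1 call among 8 growth-regulating factors.

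Some of the largest interactions belonged to genes outside these lists. RH2, which encodes an RNA helicase of the DEAD-box family, had 6.88 and 6.92 in submerged and 10.17 and 10.08 in non-submerged M202(Sub1), compared with 10.43 and 10.56 in submerged and 10.26 and 10.25 in non-submerged M202. The submerged M202(Sub1) arrays lay more than 3 below the other 6, which were between 10.08 and 10.56 (-3.46 ± 0.08, limma adjusted p = 0.00016). SMR1 had 12.39 and 12.57 in submerged and 3.47 and 3.77 in non-submerged M202(Sub1), compared with 8.65 and 8.71 in submerged and 3.21 and 3.14 in non-submerged M202. PHT3 had 7.30 and 7.39 in submerged and 2.57 and 2.59 in non-submerged M202(Sub1), compared with 4.48 and 4.44 in submerged and 2.57 and 2.55 in non-submerged M202. SMR1 and PHT3 are larger rises, with the submerged groups clearly apart and the non-submerged ones close together. HIRL2 had 5.84 and 5.50 in submerged and 3.32 and 3.01 in non-submerged M202(Sub1), compared with 2.51 and 2.43 in submerged and 2.54 and 2.53 in non-submerged M202. LOL4, of a zinc finger family, rose by 0.97 in M202(Sub1) and by 2.5 in M202, and CASPL1B1, a CASP-like membrane protein, fell by 0.80 in M202(Sub1) and rose by 0.75 in M202. These 2 were not called when 4 and 7 of the 8 arrays were left out singly (limma adjusted p = 0.0525 to 0.0865). EGY3, a protease-like membrane protein of the chloroplast, fell by 1.67 in M202(Sub1) and by 3.32 in M202, and PHR3, a regulator of phosphate starvation, fell by 1.26 in M202(Sub1) and by 2.64 in M202.

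By chromosome, the called interactions were spread over the genome, whereas genotype differences in non-submerged plants were not. The share of genes called for the interaction lay between 15.3% on chromosome 10 and 19.6% on chromosome 9, the chromosome of the SUB1 locus. The share called between genotypes in non-submerged plants was 0.501% on chromosome 10, 2.87% on chromosome 6, 5.51% on chromosome 11, 5.57% on chromosome 9 and 7.35% on chromosome 12. Chromosome 12 also had the highest number of genes, 13, called for the interaction with a genotype difference in non-submerged plants alone. Genotype differences in non-submerged plants were thus not confined to the chromosome of the SUB1 locus, and their source was not tested.

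**Figure D5:**
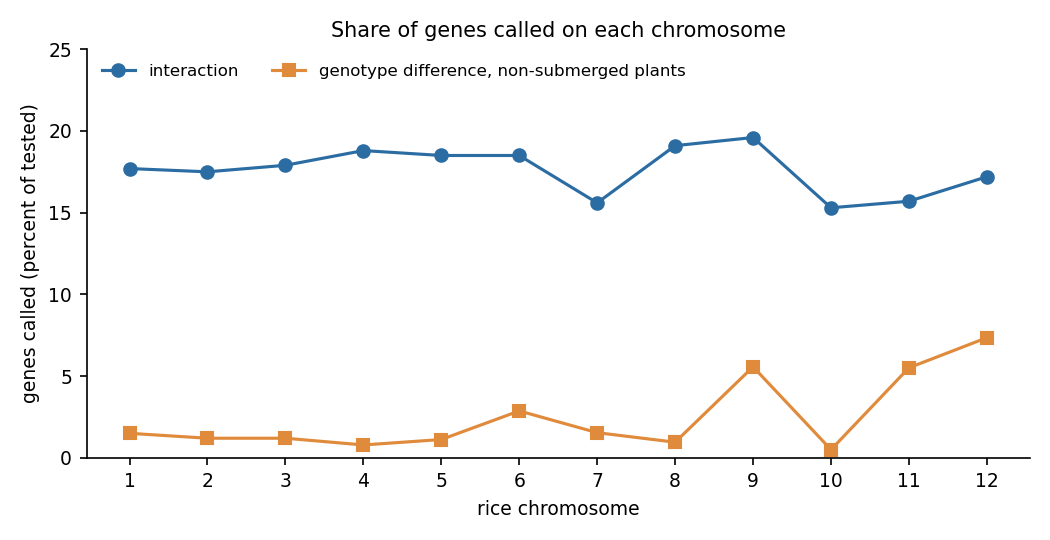
Percent of tested genes on each of the 12 rice chromosomes called for the interaction (circles) and for the genotype difference in non-submerged plants (squares). The circles stay between 15.3% and 19.6%, while the squares stand highest on chromosomes 9, 11 and 12.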

How the data were processed

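The authors deposited 1 log2 expression value per probe set and array, from Affymetrix rice arrays. GCRMA and MAS5 are named, without role or version, per the submitters' processing notes. Whether the 8 arrays were normalized together, and the genome build, are not given in the sources used here. The values were used as deposited. Of 57381 probe sets 123 controls were kept apart. Probe sets with a mean over the 8 arrays at or above the 40th percentile (log2 2.23) were tested, 34355 in all. limma 3.58.1 (R 4.3.3) fitted 1 coefficient per group to all 8 arrays (lmFit, eBayes with an intensity trend, 4 residual degrees of freedom plus a prior of 0.99). Calls are Benjamini-Hochberg adjusted p below 0.05 across all probe sets tested. Arrays have no read depth, and 2 arrays per group limit the precision. No exact permutation test was run, since with 2 arrays per group its smallest two-sided p is 0.333. The fit was tested on simulated data. Tables used Python 3.11.15, pandas 2.3.3 and numpy 2.4.6.

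The platform annotation paired 22436 probe sets with 1 gene, 95 with several and 34727 with none listed. All 17905 genes matched by gene identifier in the RefSeq table of assembly ASM3414082v1, which gave names or synonyms for 2456 and was used for names and chromosomes only. A gene is represented by its probe set with the highest mean. A called probe set was classed by the calls of the submergence response in each genotype and of the genotype difference in each condition.

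Genes were named by rule, among probe sets paired with exactly 1 gene that carries a name. The 12 highest and 12 lowest called interactions were taken that kept their sign without each array. None of these had a group mean within 0.1 of the floor. Added were up to 4 called genes per list and the gene a list is known for. The 3 largest in each populated class followed, as did the called members of the 4 symbol families with the highest share of calls. Other genes given as examples from a list, such as EXPB7, CAT-B, PIN5A, CESA1, PRR37 and GI, may lie outside the rule and were chosen after their values were seen. The comparison, members and 44 gene lists were chosen with earlier results of these data known, and the lists were fitted to the available names afterwards. Alternatives were 3 filters on low values, a fold minimum, quantile normalization, poly(A) centring, no intensity trend, a replicate block and leaving out each array.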

Additional observations from a re-analysis of the deposited data

Results flagged for a closer look

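The response to submergence differed between M202(Sub1) and M202, by limma's test of the interaction itself, at 4223 probe sets. The 24 genes below were picked for having the highest or lowest interaction. Their calls follow from that choice and are not a separate result, so only the sizes are given. The higher 12 had an interaction of 3.35 for SMR1, 3.24 for PM1, 3.24 for PIP2-5, 3.04 for GRF7, 2.89 for Adh2, 2.87 for PHT3, 2.57 for HIRL2, 2.52 for PP2C68, 2.46 for TPP1, 2.46 for PCL1, 2.35 for a gene named peroxidase and 2.21 for Cht2. The lower 12 had -3.46 for RH2, -3.08 for PMEI8, -2.22 for IRT2, -1.93 for MODD, -1.87 for CIPK16, -1.77 for WNK3, -1.63 for CAD8A, -1.61 for EXP2, -1.55 for LAC4, -1.55 for CASPL1B1, -1.54 for CIPK17 and -1.53 for LOL4. All values are log2 differences of group means. No group held enough arrays for a test of single outlying samples.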

How the results depend on the processing

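The direction held without each array for all 4223 called probe sets, and 1763 of them (41.7%) were also called in all 8 of those fits. The number called for the interaction was 2650 with no filter, 1008 with an absolute interaction of at least 1, 5339 after poly(A) centring, 4531 after quantile normalization and 3096 to 4162 without single arrays. Submergence in M202(Sub1) had 27140 calls after poly(A) centring and 15711 to 16347 without single arrays, and submergence in M202 12974 to 14143. The genotype difference in submerged plants had 15784 after poly(A) centring and 5192 to 6143 without single arrays. That in non-submerged plants had 395 to 1769, with 1769 and 1461 without replicate 1 or 2 of non-submerged M202(Sub1), 1275 and 1107 without replicate 1 or 2 of non-submerged M202, and 395 and 396 without replicate 1 or 2 of submerged M202(Sub1). The cause of these shifts was not tested. The held direction of the called probe sets is no separate support, since they were called from the same arrays.

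Class sizes moved as well. With no filter the numbers were 138 for a fall in M202 alone, 669 for a larger fall, 610 for a larger rise, 356 for a rise in M202(Sub1) alone, 153 for a smaller fall, 179 for a smaller rise, 97 with both genotype differences, 104 with neither and 2285 with one in submerged plants alone. After poly(A) centring they were 78 for a fall in M202 alone, 766 for a fall in M202(Sub1) alone, 2472 for a larger fall, 465 for a larger rise, 309 for opposite directions, 257 for a rise in M202(Sub1) alone and 451 for a smaller rise. With a group mean of 5 required, 245 had both differences and 335 neither, and with the filter at the 60th percentile 127 had one in non-submerged plants alone. Without single arrays the ranges were 134 to 824 for a fall in M202 alone, 242 to 1215 for a fall in M202(Sub1) alone, 562 to 836 for a larger fall, 563 to 836 for a larger rise, 114 to 201 for opposite directions, 281 to 1039 for a rise in M202(Sub1) alone, 152 to 695 for a rise in M202 alone, 154 to 201 for a smaller fall and 180 to 221 for a smaller rise. For genotype differences they were 105 to 196 for both, 94 to 211 for neither, 114 to 1251 for non-submerged plants alone and 1984 to 3346 for submerged plants alone.

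Of 170 named genes 161 were called, 101 of them in all 8 fits without an array. The sign reversed for CAB2R without replicate 1 of non-submerged M202(Sub1) (0.01; range without single arrays -0.09 to 0.01), for SLRL1 without replicate 2 of submerged M202(Sub1) (-0.01; range -0.01 to 1.51), and after poly(A) centring for SSII-3 (-0.01) and SUS4 (-0.02). With a replicate block, which the labels' shared numbers allow but which same-numbered arrays did not bear out (correlations of deviations 0.008 to 0.178), the interaction had 3636 calls, 1890 higher and 1746 lower. It ended the call of 22 named genes and added 1. About 43.4% to 44.8% of the values lay at the floor, where a fall cannot be seen, and 6.44% of the called probe sets had a group mean within 0.1 of it. At 5.33% of the called probe sets a group lay at the probe set's own lowest value, counted only where that was below 3. Repeated lowest values above 3, as for IAA9 and CSLC9, are not in that count.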
